A study of Danio rerio with 6 samples.

Results

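The 4 genes described here, RAPGEFL1 (ENSDARG00000079912), mlip (ENSDARG00000089920), PRKCQ (ENSDARG00000034173) and DOCK10 (ENSDARG00000075327), had a level at or under 0.5 of the lowest wildtype library in each of the 3 Gata4 morphant libraries. They were chosen by their own measured levels: the lowest wildtype value had to be at least 5 CPM (counts scaled to a library total of 1000000) and the highest morphant value at most 0.5 of it. Of 27456 rows in the count table, 10039 had a lowest wildtype value of at least 5 CPM, and 6 of these (0.0598%) met both conditions. Of 7 identifiers set aside by name in the rule, 2 met it, shtn2 and mst1ra, which left the 4 genes. Because these levels chose the genes, the differences between the groups below are a description and carry no test.

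All libraries came from tg(myl7::gfp) zebrafish embryos at 24 hours post fertilization (hpf), a line in which the promoter of the heart myosin light chain gene myl7 drives a green fluorescent protein. Batches of about 200 embryos were pooled and dissociated, and fluorescent cells were collected by a cell sorter. The 3 Gata4 morphant libraries came from embryos that had received 2 nl of a 0.7 mM antisense morpholino oligomer against Gata4, a zinc finger protein that regulates genes of the developing heart, before the 4-cell stage. The 3 wildtype libraries carry the same transgene, and the labels do not say whether those embryos were injected with a control oligomer. The oligomer of 25 bases is printed because it is the agent that separates the groups:
Gata4 morpholino: tccacaggtgagcgattattgcttc

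Morphant replicate 1 and wildtype replicates 1 and 2 were prepared with the mRNA-Seq kit, and morphant replicates 2 and 3 and wildtype replicate 3 with the TruSeq kit. Replicates are numbered by accession, which pairs no libraries, and no label says that replicates were separate clutches, so any spread given is between these libraries and may be technical. Total counts were 12574486, 37906530 and 16779626 in morphant replicates 1 to 3, and ran from 15302189 to 21119399 in the wildtype libraries. MYL7 was at 217 to 493 CPM in the morphant and 355 to 1000 CPM in the wildtype libraries, so the marker of the sort was present in all 6. RNA of leukocyte genes was also present in all 6: summed over a list of 44 leukocyte rows it reached 3180, 23338 and 6622 CPM in morphant replicates 1 to 3, and 15070, 20856 and 22975 CPM in wildtype replicates 1 to 3. Morphant replicate 2 thus stood apart from the other 2 morphant libraries. In bulk RNA of sorted cells, fewer cells of a type and less RNA per cell cannot be told apart.

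Of the 4 genes, 3 encode signalling proteins and 1 a muscle protein. RAPGEFL1 and DOCK10 belong to families of guanine nucleotide exchange factors, which switch small GTPases on by exchanging bound GDP for GTP: the RAPGEF family acts on Rap proteins, which regulate cell adhesion, and DOCK10 acts on Rac and Cdc42, which regulate the actin cytoskeleton. PRKCQ encodes protein kinase C theta, a diacylglycerol-activated kinase known in mammals from T cells and skeletal muscle. The protein of mlip, known in mammals as the muscular LMNA-interacting protein, binds A-type lamins of the nuclear envelope and is enriched in heart and skeletal muscle.

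RAPGEFL1 stood farthest from the limit of the rule. The gene measured 10.3, 30.3 and 30.0 CPM across morphant replicates 1 to 3, against 108, 125 and 92.2 CPM in wildtype replicates 1 to 3. The highest morphant library held 0.328 of the lowest wildtype value (95% interval 0.304 to 0.354, from the counts of those 2 libraries by the Clopper-Pearson method, counting error only). The rule chose the genes by this ratio, so this interval and those below are a description. Means were 23.5 ± 11.5 CPM in morphants and 108 ± 16.3 CPM in wildtype (SD, n = 3 each), a ratio of 0.217. By that ratio of means it ranked 5 of 10039. By the ratio used in the rule it ranked 2 of the 6 rows that met it, behind the set-aside gene shtn2. The rule chose it for a low ratio, so these ranks carry no test.

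PRKCQ, the protein kinase C theta gene, had nearly the same ratio of means but spread more. The gene measured 4.77, 28.0 and 13.8 CPM across morphant replicates 1 to 3, against 57.6, 63.6 and 85.0 CPM in wildtype replicates 1 to 3. Morphant replicate 2 came close to the limit, with 0.487 of wildtype replicate 1, and the counting interval of that ratio, 0.445 to 0.533, reaches past 0.5. Means were 15.5 ± 11.7 CPM in morphants and 68.7 ± 14.4 CPM in wildtype (SD, n = 3 each), a ratio of 0.226. PRKCQ varied most of the 4 within both groups: its highest morphant library held 5.88 times the lowest, and its highest wildtype library 1.47 times the lowest.

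DOCK10, the exchange factor for Rac and Cdc42, was the most even of the 4 among morphants. The gene measured 8.27, 10.5 and 8.52 CPM across morphant replicates 1 to 3, against 25.6, 21.4 and 27.8 CPM in wildtype replicates 1 to 3. Its morphant libraries differed by 1.27 times at most, and its wildtype libraries by 1.3 times. Means were 9.11 ± 1.24 CPM in morphants and 24.9 ± 3.23 CPM in wildtype (SD, n = 3 each), a ratio of 0.365. It met the limit by the smallest margin, with 0.491 in morphant replicate 2 over wildtype replicate 2 (counting interval 0.428 to 0.563).

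The lamin-binding gene mlip was the least abundant of the 4. The gene measured 2.78, 6.81 and 5.66 CPM across morphant replicates 1 to 3, against 15.4, 14.6 and 15.7 CPM in wildtype replicates 1 to 3. The wildtype libraries lay within 1.08 times of each other, the tightest of the 4 genes, while the lowest morphant value rests on 35 counts. Means were 5.08 ± 2.07 CPM in morphants and 15.2 ± 0.559 CPM in wildtype (SD, n = 3 each), a ratio of 0.334. The highest morphant library held 0.465 of the lowest wildtype value, with a counting interval of 0.393 to 0.551 that also reaches past the limit.

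**Figure D1:**
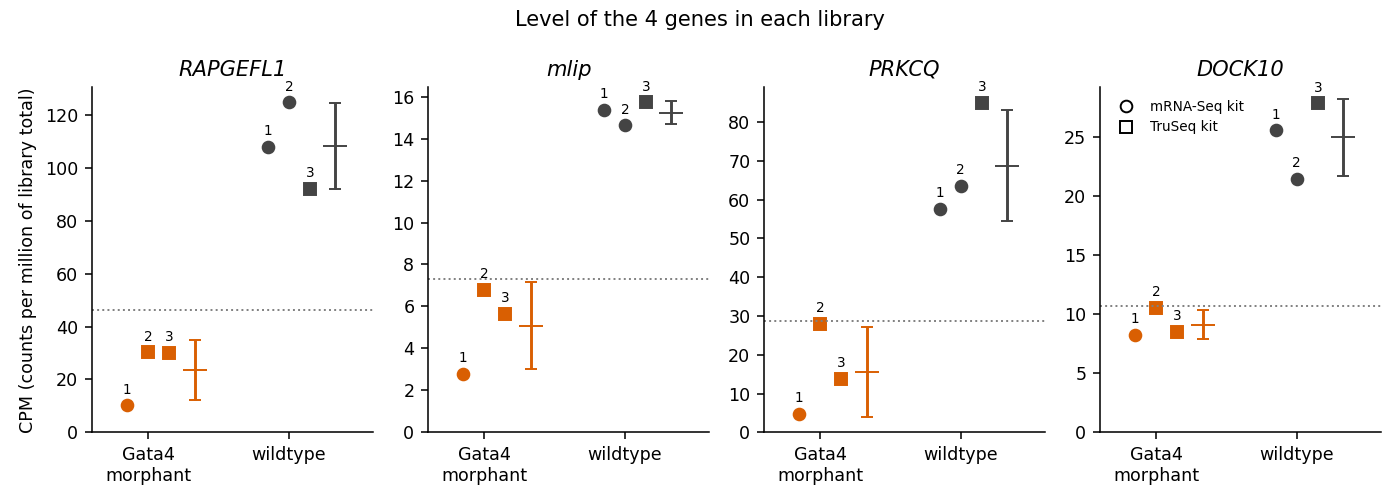
Level of each gene in CPM (y axis, from 0) in the Gata4 morphant and wildtype libraries; numbers are replicates, shapes are library kits, the bar beside each group is its mean ± SD (n = 3) and the dotted line is 0.5 of the lowest wildtype value. Every morphant point lies under the dotted line, with morphant replicate 2 of DOCK10, at 10.5 CPM, closest to it.

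Per length of transcript, the order of the 4 genes differed little between the groups. On the RPKM scale (reads per kilobase of transcript, scaled for depth, as deposited by the authors), the morphant means were 3.2 ± 1.82 for RAPGEFL1, 3.52 ± 3.10 for PRKCQ, 1.41 ± 0.424 for DOCK10 and 0.854 ± 0.448 for mlip (SD, n = 3). The wildtype means were 17.1 ± 2.7 for RAPGEFL1, 17.6 ± 5.66 for PRKCQ, 4.60 ± 0.938 for DOCK10 and 2.96 ± 0.397 for mlip (SD, n = 3). RAPGEFL1 and PRKCQ overlapped within each group. In wildtype, DOCK10 at 4.01 to 5.68 RPKM lay above mlip at 2.61 to 3.39 RPKM with no overlap, while in morphants the ranges of these genes, 1.1 to 1.89 and 0.396 to 1.29 RPKM, overlapped. Among all rows ranked by the mean RPKM of a group, RAPGEFL1 stood at percentile 62.2 in morphants and 87.1 in wildtype, and mlip at percentile 42.4 in morphants and 63.6 in wildtype.

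The morphant libraries kept 1 order at both ends in the 4 genes. Morphant replicate 2 was the highest for all 4, in RAPGEFL1 by a small margin of 30.3 against 30.0 CPM in replicate 3. Morphant replicate 1 was the lowest for all 4, in DOCK10 by a small margin of 8.27 against 8.52 CPM in replicate 3. Over the 10039 rows, morphant replicate 2 was the highest morphant library in 35.3% and morphant replicate 1 the lowest in 31.0%. Since few rows pass the limit in replicate 2, the rule itself bears on this order. Among morphants, total counts were also lowest in replicate 1 and highest in replicate 2, and the part of depth was not tested. Morphant replicate 1 held 9.47% of the wildtype mean for RAPGEFL1, 18.3% for mlip, 6.94% for PRKCQ and 33.2% for DOCK10. Morphant replicate 2 held 27.9%, 44.7%, 40.8% and 42.2% in the same gene order. On library totals DOCK10 was thus lower by much the same degree in all morphant libraries. The other 3 genes were further below wildtype in replicate 1. With totals rescaled by TMM, described below, DOCK10 was less even, at 6.41, 11.5 and 7.43 CPM across morphant replicates 1 to 3.

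Morphant replicate 2 also stood apart over all genes. In that library alone, 57 of the 10039 rows (0.568%) were at or under 0.5 of the lowest wildtype value, against 1242 rows (12.4%) in morphant replicate 1 and 692 rows (6.89%) in morphant replicate 3. Without that library 557 genes met the same limits. For the 4 genes the higher of the other 2 morphant values was 0.326 of the lowest wildtype value for RAPGEFL1, 0.387 for mlip, 0.240 for PRKCQ and 0.397 for DOCK10. The mean of morphant replicates 1 and 3 alone was 0.186 of the wildtype mean for RAPGEFL1, 0.277 for mlip, 0.135 for PRKCQ and 0.337 for DOCK10. Leaving that library out moved the ratio of means by over 1.5 times for PRKCQ, which had 0.226 with all 3. By the means of the groups alone, 361 of the 10039 rows (3.6%) were at or under 0.5 of wildtype.

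**Figure D2:**
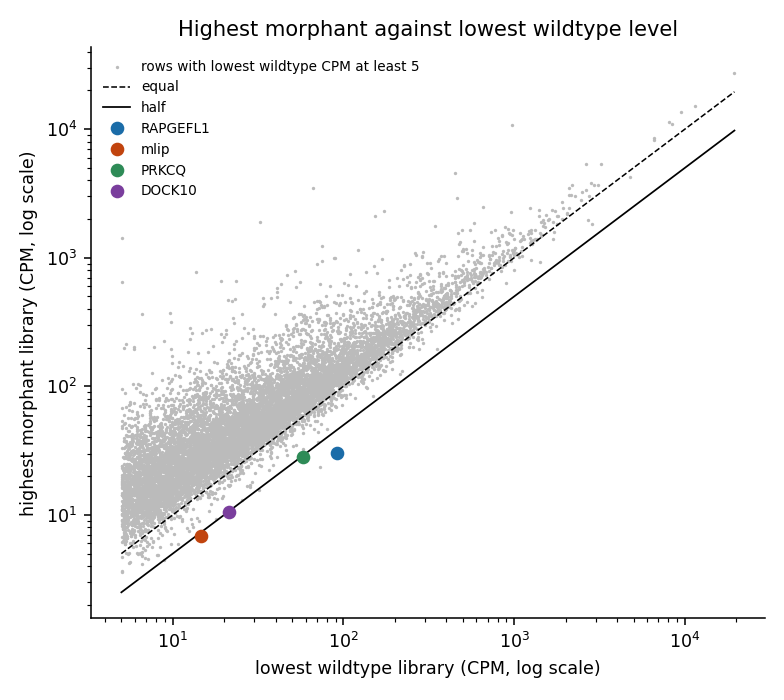
Highest morphant CPM (y axis, log scale) against lowest wildtype CPM (x axis, log scale) for the 10039 rows with a lowest wildtype value of at least 5 CPM; the dashed line marks equal levels and the solid line a ratio of 0.5. The 4 genes lie under the solid line, RAPGEFL1 farthest, and PRKCQ and DOCK10 almost on it.

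The genes just outside the limit were close in value. Among genes with a symbol, the nearest were si:dkey-261l7.2 with a ratio of 0.506, the RNA-binding ubiquitin ligase gene rc3h2 with 0.517, the tyrosine kinase gene MATK with 0.522 and klhl35 with 0.550. MATK measured 5.73, 37.1 and 20.7 CPM across morphant replicates 1 to 3, against 168, 94.98 and 71.1 CPM in wildtype replicates 1 to 3, and so differed more in its means than DOCK10 did. A limit of 0.55 in place of 0.5 would have taken 11 rows and a limit of 0.6 would have taken 21, set-aside identifiers included. In all, 448 of the 10039 rows (4.46%) had every morphant library below every wildtype library, as these 4 genes must.

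The rule holds the ratio of means of each gene at or under 0.5 within either kit. Only its distance below 0.5 is left free, so the ratios are a description. Within the TruSeq libraries (2 morphant, 1 wildtype) the ratio of means was 0.327 for RAPGEFL1, 0.396 for mlip, 0.246 for PRKCQ and 0.342 for DOCK10. Within the mRNA-Seq libraries (1 morphant, 2 wildtype) it was 0.0881, 0.186, 0.0787 and 0.352 in the same gene order. The ratios in the kits were nearly equal for DOCK10 and smaller in the mRNA-Seq kit for the other 3. Of the TruSeq values, that of PRKCQ was 0.163 without morphant replicate 2. The wildtype TruSeq library differed from the mean of the wildtype mRNA-Seq libraries by 0.49 (log2) for PRKCQ, 0.24 for DOCK10, 0.07 for mlip and -0.34 for RAPGEFL1. The part of the kit in the differences between the groups was not tested.

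The scaling of the libraries moved one gene across the limit. With totals rescaled by TMM, edgeR's trimmed mean of M values, the ratio of highest morphant to lowest wildtype was 0.304 for RAPGEFL1, 0.481 for mlip, 0.529 for PRKCQ and 0.480 for DOCK10. With DESeq2 size factors PRKCQ had 0.544, and the other 3 stayed under 0.5. Further genes joined, so that the rule gave 9 genes with TMM and 11 with DESeq2 size factors. Over the 18033 genes tested, log2 fold changes had a median of 0.46 with library totals and 0.07 with TMM. The corresponding edgeR log2 fold changes (morphant minus wildtype) were -2.54 with totals and -2.92 with TMM for RAPGEFL1, -1.86 and -2.23 for mlip, -2.82 and -3.17 for PRKCQ, and -1.52 and -1.89 for DOCK10.

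**Figure D3:**
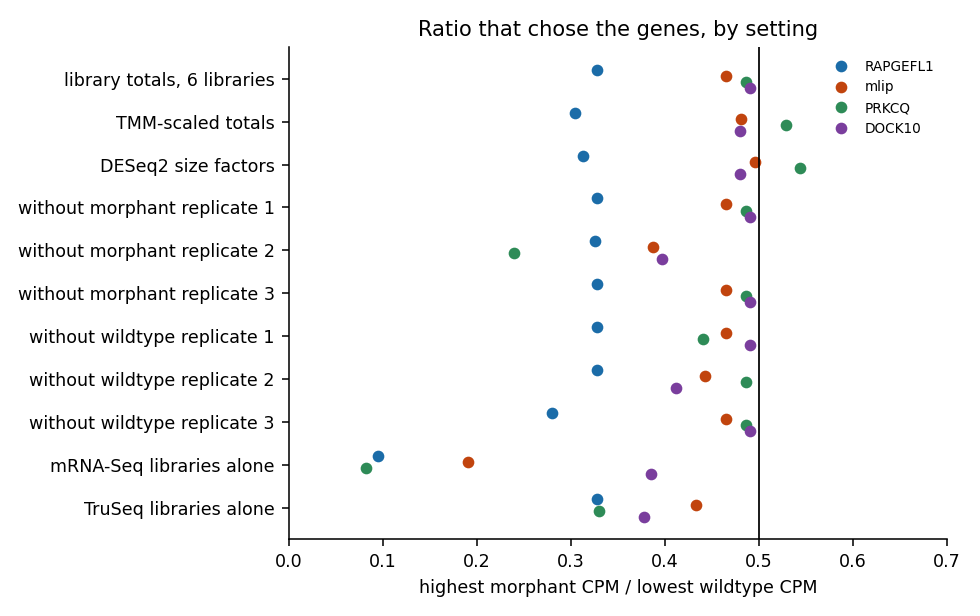
Highest morphant CPM over lowest wildtype CPM (x axis) for each gene under each scaling, with each library left out in turn and within each kit (rows); the vertical line is the limit of 0.5. PRKCQ passes the line under TMM (0.529) and DESeq2 size factors (0.544), and mlip reaches 0.496 under the size factors. Points with a library left out or within one kit lie under the line because the rule places them there.

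Fits over all genes gave different numbers of calls. edgeR's quasi-likelihood test with a term for kit called 0 of 18033 genes (0%) in either direction at an adjusted p under 0.05, with 2261 at an unadjusted p under 0.05, and so called 0 of the 4. DESeq2 with the same terms called 170 of 16634 genes lower (1.02%), and limma-voom called 0 genes. All 4 genes were among the DESeq2 calls. At an adjusted p under 0.05, 72 of 27456 rows (0.262%) were lower in morphants in the authors' deposited table, and 2 of the 4 genes were among them. In the authors' deposited table the fold of wildtype over morphant was 5.49 for RAPGEFL1 (adjusted p = 0.00102), 5.10 for PRKCQ (adjusted p = 0.00538), 3.40 for DOCK10 (adjusted p = 0.0885) and 3.59 for mlip (adjusted p = 0.108). The same libraries chose the genes, so these counts say nothing further about them.

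Other members of the families of RAPGEFL1, PRKCQ and DOCK10 ranged from lower to higher in morphants. Families were taken by gene symbol after the 4 genes were known, and only rows with at least 5 CPM in every wildtype library are described. Of 6 other protein kinase C rows, 0 were below in every morphant library, against 4.46% of all 10039 rows, so that so few rows say little about the family. Their ratios of means ran from 0.744 to 1.37. The lowest of them, a PRKCD row (ENSDARG00000070651), measured 51.1, 249 and 108 CPM across morphant replicates 1 to 3, against 193, 158 and 197 CPM in wildtype replicates 1 to 3. PRKCD encodes protein kinase C delta, a relative of the theta form. Without morphant replicate 2, both PRKCD rows were below every wildtype library, as were 24.7% of the 10039 rows.

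Among the exchange factors, 1 of 6 other DOCK rows was below in every morphant library, against 4.46% of all 10039 rows. That row was DOCK8, an exchange factor of immune cells in mammals. It measured 74.5, 182 and 98.3 CPM in morphant replicates 1 to 3, against 299, 230 and 192 CPM in wildtype replicates 1 to 3. Its ratio of means was 0.491, but its highest morphant value was 0.946 of its lowest wildtype value. The DOCK ratios of means ran up to 2.90 in DOCK9. Of 5 other RAPGEF rows, 0 were below and 1, RAPGEF6, was above in every morphant library on library totals. The share of all rows that were above was not computed, and with TMM the edgeR log2 fold change of RAPGEF6 was 0.08. Ratios of means in the RAPGEF rows ran from 0.512 for one RAPGEF1 row (ENSDARG00000043593) to 2.31 for the other (ENSDARG00000015971). Without morphant replicate 2, DOCK11 (27.5 and 50.4 CPM in morphant replicates 1 and 3, against 101 CPM or more in wildtype) was also below, with a ratio of 0.498 that meets the limit of the rule. The RAPGEF1 row with the lower ratio and rapgef2a were then below as well, with ratios of 0.812 and 0.815. In that setting 24.7% of the 10039 rows were below and 560 met the ratio limit, set-aside identifiers included. So few family rows say little beside those shares. LMNA, the A-type lamin gene whose protein binds the mlip product, averaged 59.3 ± 30.1 CPM in morphants and 52.0 ± 31.8 CPM in wildtype (SD, n = 3 each), with overlapping groups.

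**Figure D4:**
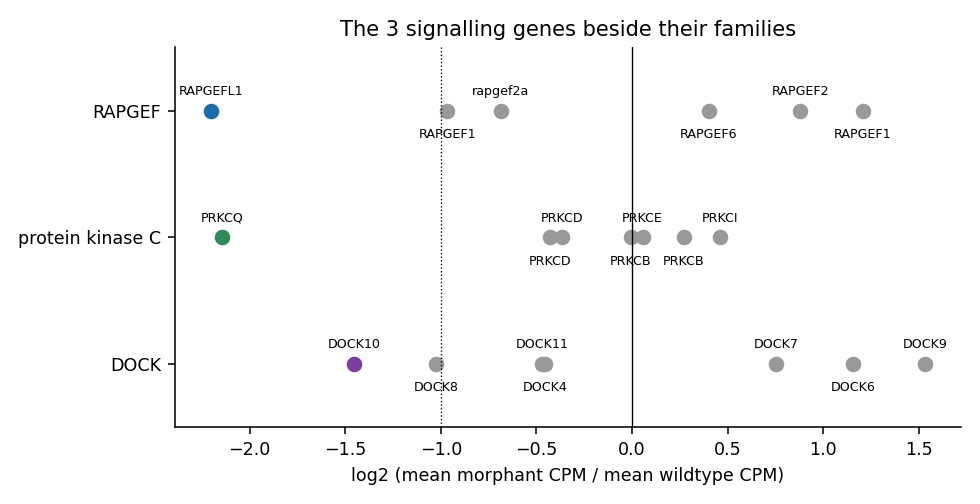
Log2 of the mean morphant CPM over the mean wildtype CPM (x axis) for rows of 3 gene families with at least 5 CPM in every wildtype library, 1 family a line; the solid line marks equal means and the dotted line a ratio of 0.5. RAPGEFL1, PRKCQ and DOCK10 (coloured) are the lowest of their families, at -2.20, -2.14 and -1.45. The rule chose them for low ratios, so this place carries no test.

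Few genes next to the 4 on the chromosome could be compared. By the gene order of RefSeq (GRCz12tu), the nearest 2 protein-coding genes on each side were looked up, and 11 of 16 matched a row by symbol. Of these, 7 had at least 5 CPM in every wildtype library, 4 beside PRKCQ, 2 beside RAPGEFL1, 1 beside DOCK10 and 0 beside mlip. Of the 7, 0 were below in every morphant library, against 4.46% of all rows, and so few rows show no difference from that share. The exon junction gene casc3, beside RAPGEFL1, measured 111, 91.1 and 101 CPM across morphant replicates 1 to 3, against 91.6, 89.7 and 87.4 CPM in wildtype replicates 1 to 3. The sfmbt2 gene, beside PRKCQ, measured 2.94, 13.0 and 2.68 CPM across morphant replicates 1 to 3, against 17.3, 9.71 and 7.21 CPM in wildtype replicates 1 to 3. Its groups overlapped through morphant replicate 2 alone, and without that library its ratio was 0.408, which meets the limit of the rule. In that setting 560 of the 10039 rows met the ratio limit, set-aside identifiers included. Of the 7 neighbours sfmbt2 had the lowest ratio of means, 0.545, and the others ran from 1.03 for sbds to 2.06 for col1a1a.

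Of the 4 genes 0 were in any of 19 lists of pathway and cell type genes. The lists held 448 of the 10039 rows with at least 5 CPM in every wildtype library. Of these listed rows 0 met the rule, against 0.0598% of all 10039 rows. With shares this small, neither 0 says anything about where the 4 genes belong. The nearest listed genes were the myosin heavy chain gene MYH7 with a ratio of 0.572, the endoplasmic reticulum chaperone gene HSP90B1 with 0.640, another such chaperone gene, HYOU1, with 0.656, and the sodium-calcium exchanger gene SLC8A1 with 0.666. The leukocyte list had 2 of 41 rows below in every morphant library and a median edgeR log2 fold change of -1.92 with TMM and -1.58 with totals. Without morphant replicate 2, 39 of the 41 were below every wildtype library and 28 met the ratio limit of the rule, while the sarcomere list stayed at 10 of 29 rows below. Of 41 leukocyte genes tested edgeR called 0, with 12 at an unadjusted p under 0.05, and DESeq2 called 2 lower. The sarcomere list had 10 of 29 rows below and a median of -0.47 with TMM and -0.07 with totals. Of its 39 genes tested edgeR called 0, with 12 at an unadjusted p under 0.05, and DESeq2 called 2, both lower. Over all genes, 2261 of 18033 had an unadjusted edgeR p under 0.05, and DESeq2 called 170 of 16634 lower (1.02%). The background for rows below in every morphant library was the 4.46% given above. Without morphant replicate 2 it was 24.7%, and 560 of the 10039 rows met the ratio limit, set-aside identifiers included.

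Levels of the 4 genes were set beside the leukocyte sum by library. In wildtype the sum rose from replicate 1 to 3, as PRKCQ did, while RAPGEFL1, DOCK10 and mlip had other orders. Among morphants the sum and all 4 genes were lowest in replicate 1 and highest in replicate 2, and the rule bears on that order. Morphant replicates 1 and 3, at 3180 and 6622 CPM, lay under every wildtype library in that sum, and morphant replicate 2, at 23338 CPM, lay above every wildtype library. The rule itself placed the 4 genes at or under 0.5 of the lowest wildtype value in all 3 morphant libraries. Of the leukocyte rows 0 were at 0 in all libraries, and the pan-leukocyte gene ptprc measured 55.2, 429 and 78.7 CPM across morphant replicates 1 to 3, against 412, 498 and 393 CPM in wildtype replicates 1 to 3. The part of leukocyte RNA in the levels of the 4 genes was not tested.

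The 4 genes were also set against the leukocyte sum. The share of all rows that overlap on this scale was not computed, so overlap or its lack is only a description. For morphant replicate 2 a place below every wildtype library was fixed in advance in all 4 genes. The rule caps its levels at 0.5 of the lowest wildtype value, and its leukocyte sum lay above every wildtype library. Per 1000 CPM of the leukocyte list, PRKCQ measured 1.50, 1.2 and 2.09 CPM across morphant replicates 1 to 3, against 3.82, 3.05 and 3.70 CPM in wildtype replicates 1 to 3, with no overlap. RAPGEFL1 had 3.23, 1.3 and 4.54 CPM in morphants on that scale, against 7.16, 5.99 and 4.01 CPM in wildtype, and the groups overlapped. DOCK10 had 2.60, 0.451 and 1.29 CPM in morphants, against 1.7, 1.03 and 1.21 CPM in wildtype, with morphant replicate 1 above every wildtype library. The values of mlip overlapped as well, at 0.292 to 0.875 CPM in morphants and 0.685 to 1.02 CPM in wildtype.

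The muscle gene mlip was also set against the sarcomere list. That list of 44 rows summed to 7308, 3665 and 6650 CPM in morphant replicates 1 to 3, against 13620, 6337 and 5419 CPM in wildtype replicates 1 to 3. Morphant replicates 1 and 3 thus lay inside the wildtype range of the sum, with mlip levels of 2.78 and 5.66 CPM. A list of 33 skeletal muscle rows summed to 8650, 772 and 8689 CPM in morphant replicates 1 to 3. In wildtype replicates 1 to 3 it summed to 1306, 986 and 1522 CPM. The sarcomere sum may therefore hold RNA of skeletal muscle, most of all in morphant replicates 1 and 3, and is no measure of heart muscle alone. Per 1000 CPM of the sarcomere list mlip measured 0.381, 1.86 and 0.851 CPM across morphant replicates 1 to 3, against 1.13, 2.31 and 2.90 CPM in wildtype replicates 1 to 3, and the groups overlapped through morphant replicate 2 and wildtype replicate 1. On the same scale PRKCQ measured 0.653, 7.65 and 2.08 CPM in morphants, against 4.23, 10.04 and 15.7 CPM in wildtype, and overlapped. The groups also overlapped for DOCK10, at 1.13 to 2.87 CPM in morphants and 1.88 to 5.14 CPM in wildtype, and for RAPGEFL1, at 1.40 to 8.26 CPM in morphants and 7.93 to 19.7 CPM in wildtype. The share of all rows that overlap on the sarcomere scale was not computed either. The part of heart or skeletal muscle content in these levels was not tested.

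**Figure D5:**
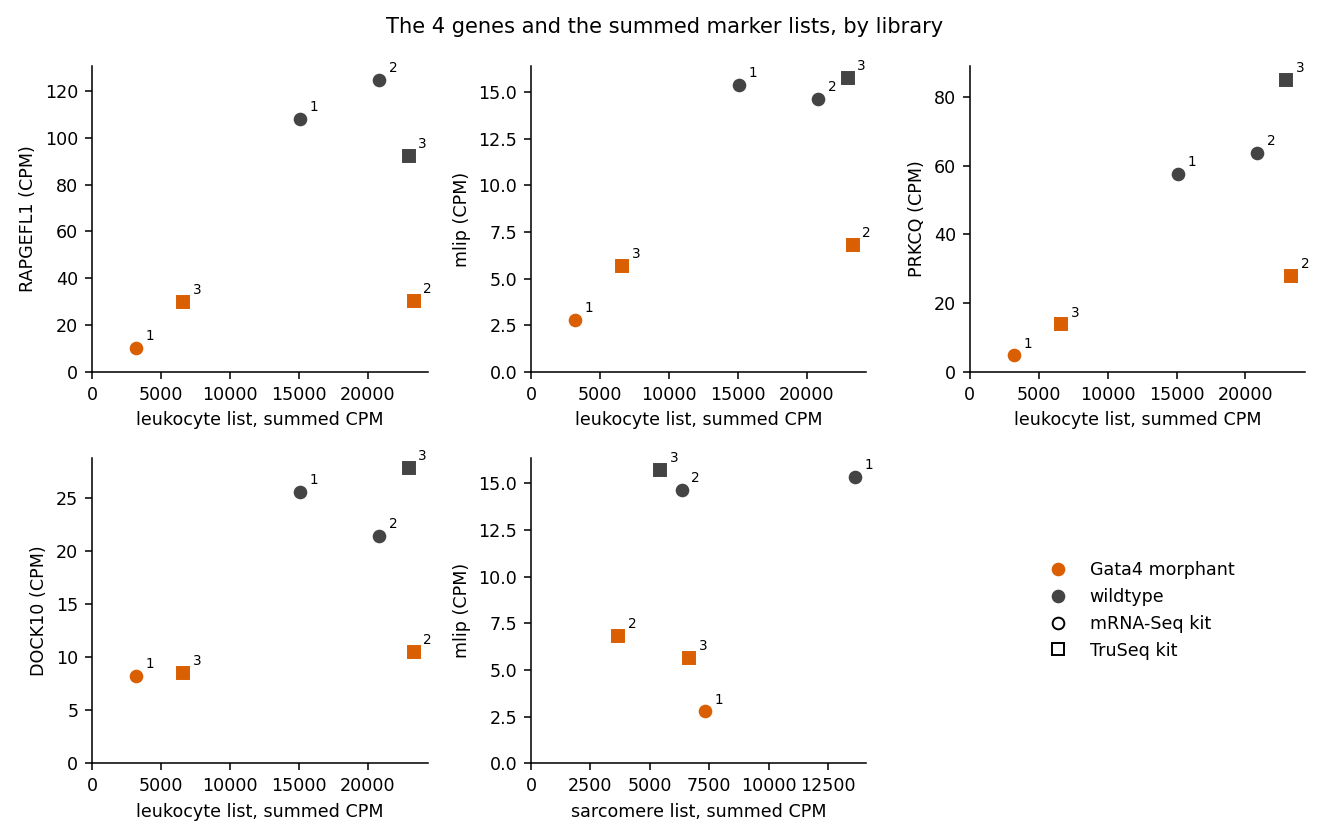
Level of each gene (y axis, CPM) against the summed CPM of the leukocyte list (first 4 panels) or the sarcomere list (last panel) in each library; colours are groups, shapes are kits and numbers are replicates. Morphant replicate 2 sits at 23338 CPM of leukocyte genes, right of every wildtype library. The rule places every morphant library below all wildtype libraries in each gene, so that height carries no test.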

How the data were processed

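RNA of sorted cells was sequenced in 6 libraries, 3 per group, and 1 table of the series was used. For each library the table gives raw counts by Ensembl identifier, as the authors deposited them per the file headers, beside RPKM values, base means (a normalized signal), a fold (ratio) of base means and p-values. Columns headed as average counts equalled, within 1%, the other group's mean in 100% of rows and were not used; RPKM means went with their own group in 100%. RPKM values go with the count plus 1, times a factor for the gene and a factor for the library. PRKCQ had 0.876 RPKM at 60 counts in morphant replicate 1 and 6.93 RPKM at 1063 counts in morphant replicate 2. The library factors did not follow the column totals, so ratios on the RPKM scale differ from those in CPM. Per the submitters' processing notes, CASAVA 1.7.0, BWA, DESeq and build Zv9 were named. For counting tool, annotation and strand the labels give nothing, so reads shared with close relatives or overlapping genes may have been split.

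CPM is the count over the column total times 1000000. Symbols matched 19189 of 27456 rows. Fits over all genes used edgeR 4.0.16 in R 4.3.3 (TMM, filterByExpr, terms for kit and group, two-sided quasi-likelihood F test, Benjamini-Hochberg adjustment, threshold 0.05), with DESeq2 1.42.0 and limma 3.58.1 as alternatives. The edgeR fit was also run on simulated counts with no kit effect and no library standing apart, which says little about its performance on these data. Ratios of highest to lowest library have Clopper-Pearson intervals at 95%, which cover counting error only. They were taken on the ratio that chose the genes, so the 95% is nominal and carries no test. The rule for genes given with values took members in a list, those with the highest wildtype means or lowest ratios, the 4 members nearest inside and the 4 genes with a symbol nearest outside the limit, and myl7 and gata5 as checks. With 4 members it names all of them. GATA5 was at 16.9 to 35.5 CPM in morphants and 20.1 to 31.8 CPM in wildtype. Family and neighbouring genes, LMNA, ptprc and the genes that join under TMM were chosen after the values were seen, and the members and lists were chosen with earlier results of these data known.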

Additional observations from a re-analysis of the deposited data

How the results depend on the processing

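With a library left out, within 1 kit or with a lowest wildtype level of at least 2 CPM the 4 genes meet the rule by construction, so that these settings say nothing of their stability. At 10 CPM the rule gave the same 4. How many genes met it depended on the other settings. The rule gave 9 genes with TMM and 11 with DESeq2 size factors, 3 of the 4 (without PRKCQ) in both, 1 gene (RAPGEFL1) at a ratio limit of 0.333 and 37 at 0.667. It gave 5 to 557 genes with 1 library left out, the 557 being without morphant replicate 2. Fewer libraries make the rule easier to meet, as in the mRNA-Seq libraries alone (1478 genes) and the TruSeq libraries alone (136). Of these, genes in a list numbered 4 at 0.667, 0 to 39 with 1 library left out, 105 in mRNA-Seq and 7 in TruSeq libraries. The median log2 ratio of means of the 4 genes was -1.86, with -2.14 to -1.55 when 1 library was left out and -2.97 in the mRNA-Seq libraries alone. Over all genes edgeR called 0, also with no kit term, library totals or RLE factors, and limma-voom called 0. edgeR called 44 with no filter on low counts, 0 to 3745 with 1 library left out (3745 without morphant replicate 2), and DESeq2 called 293, 170 of them lower; the cause of these differences was not tested. Of the ratios of single genes, those under TMM and DESeq2 size factors could have passed 0.5, and that of PRKCQ did under both (0.529 and 0.544). Family, neighbour and list counts without morphant replicate 2 were added after seeing the data. The planned search of promoters and protein ends was not run, because no sequence table was used here.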

Other observations

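With TMM scaling 6 genes joined RAPGEFL1, mlip and DOCK10 under the same limits, all with ratios between 0.506 and 0.687 on library totals. They were named after their values were seen. EGR3 and NR4A3 encode transcription factors known as rapidly induced genes, and NAB1 encodes a corepressor that binds EGR proteins. On the TMM-scaled CPM scale EGR3 measured 35.6, 36.1 and 40.4 CPM across morphant replicates 1 to 3, against 116, 110.5 and 82.1 CPM in wildtype replicates 1 to 3. NR4A3 had 102, 56.5 and 105 CPM in morphants, against 220, 314 and 305 CPM in wildtype. The rule with TMM places the morphant libraries of all 6 genes below the wildtype libraries. Morphant replicate 2 was not the highest of the 3 in EGR3 and NR4A3. The same held for NAB1, MITF and si:dkey-261l7.2, but not for MATK.

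NAB1 measured 3.2, 2.5 and 4.26 TMM-scaled CPM across morphant replicates 1 to 3, against 9.57, 26.4 and 9.98 CPM in wildtype replicates 1 to 3. The transcription factor gene MITF had 9.48, 11.98 and 14.3 CPM in morphants, against 35.3, 44.6 and 34.4 CPM in wildtype. The remaining 2 were MATK and si:dkey-261l7.2, with TMM ratios of 0.467 and 0.384. These differences chose the genes and carry no test.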
